A study of Mus musculus with 20 samples.

Results

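The smooth muscle contractile genes Acta2, Tagln, Cnn1, Myh11, Actg2, Des, Myl9, Lmod1, Myocd and Tpm2 were followed in mouse embryonic fibroblasts (MEFs) as a readout of the myofibroblast state. They were chosen by symbol, and are 10 of the 25869 genes in the expression table. RNA was sequenced from 10 MEF libraries. WT MEFs carry no transgene and gave 2 libraries. The other 8 libraries came from MEFs with the dCas9a-SAM cassette, which expresses a catalytically dead Cas9 with transcriptional activators. Of these, 2 had no sgRNA, 2 had a non-targeting sgRNA (sgNT) and 4 had an sgRNA against Bcl-2 (sgBcl-2). The labels give the genotype without the number of copies, and the methods of the study give heterozygous knock-in mice (KI/+) and embryos at E14. In the labels, 2 MEF lines are numbered in each group, and the sgBcl-2 libraries are 2 from each line. The labels do not say whether these 2 are separate guides or separate cultures, so p-values measure only the spread between these libraries, which may be technical.

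Smooth muscle cells contract when myosin II slides along actin filaments that are decorated with calponin, transgelin and tropomyosin. Fibroblasts switch on part of the same programme when they become myofibroblasts, the contractile cells of healing wounds and scars, and stiff culture plastic and TGF-beta are known to favour this state. Many of these genes are driven by serum response factor (SRF), which binds the CArG box, a short A/T-rich stretch between CC and GG, together with myocardin (Myocd) or the myocardin-related factors Mrtfa and Mrtfb. In bulk RNA, fewer contractile cells and less RNA in each cell cannot be told apart.

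CArG boxes are shown because they are the shared element through which SRF acts on this family. They were searched in RefSeq promoter windows (GRCm38.p6) that run from 250 bases before a transcript start to 50 bases after it, with up to 1 base allowed to deviate. The pattern reads the same on both strands. Of the 10 genes, 6 had a window (Acta2, Cnn1, Des, Myl9, Lmod1 and Tpm2), and Tagln, Myh11, Actg2 and Myocd had none. Windows of 3 genes held a box with up to 1 deviation, against 21.1% of all 32851 windows, and only that of Myl9 held an exact one, against 1.63%. These letters were not in the windows of Cnn1, Des and Tpm2. The boxes are in capitals with 10 bases on each side, each read 5′ to 3′ on the strand of its gene.
Acta2, 84 to 75 bases before the start: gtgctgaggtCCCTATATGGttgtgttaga
Acta2, 34 to 25 bases before the start: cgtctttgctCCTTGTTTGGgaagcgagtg
Myl9, 161 to 152 bases before the start: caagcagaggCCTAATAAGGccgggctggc
Myl9, 99 to 90 bases before the start: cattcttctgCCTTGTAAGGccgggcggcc
Lmod1, 189 to 180 bases before the start: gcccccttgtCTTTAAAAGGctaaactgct
Lmod1, 164 to 155 bases before the start: ctgctctgtaCTAAATTTGGtcacgcagcg
The Acta2 stretches lie at chr19:34255438-34255467 and chr19:34255388-34255417 on the minus strand, in an exon of a longer Acta2 transcript. The Myl9 stretches lie upstream of the gene at chr2:156775293-156775322 and chr2:156775355-156775384 on the plus strand, and those of Lmod1 upstream of it at chr1:135324614-135324643 and chr1:135324639-135324668 on the plus strand. The first Myl9 box is the exact one. A match is a description of the letters in a window and shows no binding.

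Depth was between 18854501 and 26560233 reads on genes. The targeted gene Bcl2 was at 67.9 and 48.6 CPM in line 1 and 46.8 and 71.8 CPM in line 2 with sgBcl-2, above the 13.4 and 13.7 CPM with sgNT. CPM are reads for every 1000000 reads counted on genes. The female-specific transcript Xist was at 436 to 566 CPM in the 3 libraries of line 2 that carry an sgRNA, and at most 0.346 CPM in the other 7 libraries. The Y-linked gene Ddx3y ran the other way, at most 0.124 CPM in those 3 and at least 66.8 CPM in the other 7. The no sgRNA library labelled line 2 therefore differs in sex from the sgNT and sgBcl-2 libraries labelled line 2, so their common line number goes against the data, and results that use it are given with and without that group. WT line 2 also stood apart. Its summed CPM of 12 fibroblast markers was 4233 against 12530 to 18260 in the other libraries, while its cardiac muscle markers summed to 666 CPM against 3.64 to 19.7. Of the fibroblast markers, Dcn, Lum, Pdgfra, Pdgfrb and Twist2 were inside their range elsewhere, and the others were lowest in WT line 2.

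The actins form the thin filament. Acta2 (chr19:34240336-34255585, GRCm38), smooth muscle alpha-actin and the usual marker of myofibroblasts, was at 3056 and 928 CPM in WT lines 1 and 2, 3238 and 3974 CPM without an sgRNA, 3218 and 2643 CPM with sgNT, and 2035, 2370, 1736 and 1760 CPM with sgBcl-2. All 4 sgBcl-2 libraries were below both sgNT libraries, and WT line 2 was the lowest of all. Actg2 (chr6:83512909-83536251), the gamma-actin of visceral smooth muscle, was at 125 and 92.1 CPM in WT, 130 and 171 CPM without an sgRNA, 158 and 108 CPM with sgNT, and 75.1, 106, 78.1 and 65.9 CPM with sgBcl-2. The highest sgBcl-2 library lay just under the lower sgNT library. Actin genes are close copies of each other, and reads that match several of them may have been split between them.

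The next 4 genes encode proteins that bind actin filaments. Tagln (chr9:45929628-45936058), transgelin, was at 1951 and 1375 CPM in WT, 2072 and 2510 CPM without an sgRNA, 1768 and 1478 CPM with sgNT, and 1361, 1414, 1067 and 1178 CPM with sgBcl-2. Its groups were ordered without overlap from no sgRNA through sgNT to sgBcl-2. In the annotation, Pcsk7 and Gm48529 on the opposite strand overlap its exons, and the larger overlap covers 62.4% of its exon bases. The TruSeq RNA kit (version 2) that the methods name does not mark the strand, so reads of Tagln and of these genes in shared bases cannot be told apart. Pcsk7 itself was at 21.6 to 39.9 CPM. Cnn1 (chr9:22099221-22109221), calponin, which restrains actomyosin, was at 158 and 23.8 CPM in WT, 209 and 270 CPM without an sgRNA, 218 and 186 CPM with sgNT, and 130, 149, 108 and 97.2 CPM with sgBcl-2. Here too every sgBcl-2 library was below both sgNT libraries, and WT line 2 was far below the rest. Tpm2 (chr4:43513726-43523583), beta-tropomyosin, was at 738 and 215 CPM in WT, 779 and 906 CPM without an sgRNA, 805 and 728 CPM with sgNT, and 620, 598, 496 and 529 CPM with sgBcl-2. Lmod1 (chr1:135324813-135368065), leiomodin, which nucleates actin filaments, was at 98.9 and 27.4 CPM in WT, 84.3 and 90 CPM without an sgRNA, 111 and 103 CPM with sgNT, and 71.6, 83.1, 63.7 and 59.6 CPM with sgBcl-2. For both, the sgBcl-2 libraries did not overlap those with sgNT.

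Among the myosin genes, Myl9 (chr2:156775408-156781657), the regulatory light chain, was at 529 and 127 CPM in WT, 571 and 678 CPM without an sgRNA, 651 and 532 CPM with sgNT, and 347, 399, 316 and 309 CPM with sgBcl-2. Myh11 (chr16:14194527-14292188), the smooth muscle myosin heavy chain and a specific marker of smooth muscle, was at 56.2 and 19 CPM in WT, 33.7 and 40.9 CPM without an sgRNA, 72.7 and 51 CPM with sgNT, and 21.6, 46.6, 42.7 and 23 CPM with sgBcl-2. Within sgBcl-2 its level split inside each line, with 1 low and 1 high library in both. Des (chr1:75360292-75368579), desmin, the intermediate filament of muscle, followed another pattern, at 12.2 and 121 CPM in WT, 53.1 and 58.4 CPM without an sgRNA, 22.1 and 18.8 CPM with sgNT, and 20.3, 22.7, 20.2 and 23.7 CPM with sgBcl-2. Its highest value was in WT line 2, where most other members were lowest. Of its exon bases, 5.86% overlap a gene on the opposite strand. Myocd (chr11:65173608-65269989), the coactivator itself, was at 5.73 and 4.98 CPM in WT, 4.22 and 4.73 CPM without an sgRNA, 4.53 and 5.75 CPM with sgNT, and 4.49, 3.46, 2.95 and 1.72 CPM with sgBcl-2. The sgBcl-2 libraries of line 2 were its lowest. Summed over the 10 genes, the contractile genes took 0.703% and 0.585% of reads with sgNT and 0.469%, 0.519%, 0.393% and 0.405% with sgBcl-2.

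**Figure D1:**
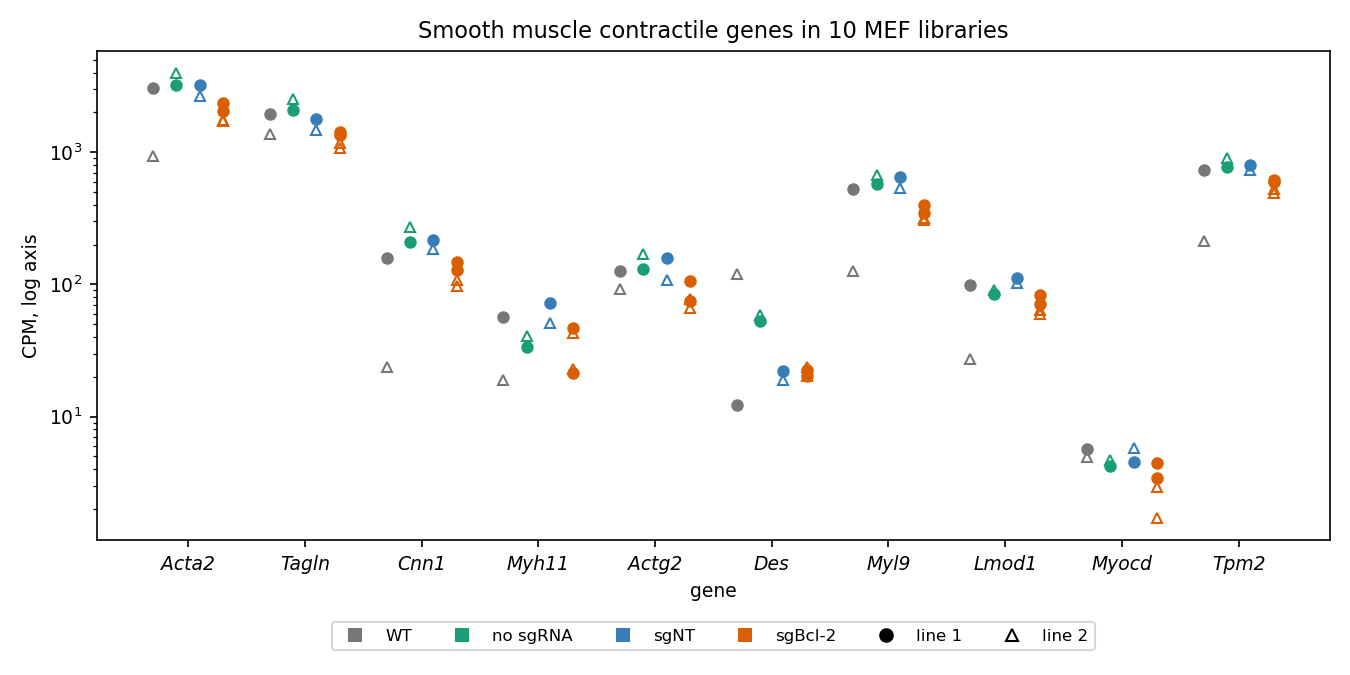
CPM (log axis) of the 10 genes in each MEF library, coloured by group, with filled circles for line 1 and open triangles for line 2. The sgBcl-2 libraries lie below sgNT for every gene except Des, and WT line 2 lies lowest for Acta2, Cnn1, Myh11, Myl9, Lmod1 and Tpm2 but highest for Des.

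Per kilobase of annotated exon, the mean level over the 10 libraries was highest for Acta2 at 1137 ± 413 CPM per kb (SD, n = 10). Tagln was at 814 ± 226 CPM per kb, closer to Acta2 than the spread, and was the lower in 9 of 10 libraries, WT line 2 being the exception. Then came Myl9 at 384 ± 150 and Tpm2 at 220 ± 67.8 CPM per kb. Actg2 at 71.2 ± 22.6 and Cnn1 at 56.5 ± 25.7 CPM per kb were closer than their spread, although Actg2 was the higher in 10 of 10 libraries. Lmod1 was at 20.1 ± 6.27 CPM per kb. Des at 9.91 ± 8.79 and Myh11 at 5.36 ± 2.24 CPM per kb could not be ordered, since Des was the higher in 5 of 10 libraries. Myocd was lowest at 0.663 ± 0.195 CPM per kb.

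The comparison of sgBcl-2 with sgNT asks what differed when Bcl-2 was targeted, with the cassette and a guide present in both groups. Cnn1, Myl9 and Lmod1 fell with sgBcl-2, 3 of the 10 contractile genes. The other 7 did not pass. In all, 9 of 10 genes had a negative log2 fold change, and Des alone had a positive one. All 4 sgBcl-2 libraries were below both sgNT libraries for 9 of 10 genes, against 30.9% of the 14676 genes tested. Myl9 was at 343 ± 41.2 CPM (SD, n = 4) with sgBcl-2 and 592 ± 84.6 CPM (SD, n = 2) with sgNT, a log2 fold change of -0.70 ± 0.11 (SE) with an adjusted p of 0.00975 (limma, Benjamini-Hochberg). Fold changes here are of scaled CPM after 0.1 was added, which understates those of low genes. Lmod1 fell by 0.55 on the log2 scale (SE 0.12, adjusted p = 0.024). Cnn1 fell by 0.67 on the log2 scale (SE 0.15, adjusted p = 0.028).

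These 3 of 10 genes passed the threshold of 0.05 as lower, against 4.24% of the genes tested, and 0 of 10 as higher, against 6.61%. The median log2 fold change was -0.58 over the 10 genes and -0.01 over all genes. At an unadjusted p under 0.05 there were 7 of 10 genes, against 29.2% of all. Just outside the threshold were Tpm2 at -0.37 ± 0.10 (adjusted p = 0.0526), Acta2 at -0.48 ± 0.14 (adjusted p = 0.0668) and Actg2 at -0.61 ± 0.19 (adjusted p = 0.0696). Myh11 had the most negative value, -0.86 ± 0.31, but its libraries were spread and its adjusted p was 0.112. Myocd was at -0.67 ± 0.33 (adjusted p = 0.216), Tagln at -0.28 ± 0.13 (adjusted p = 0.188) and Des at 0.17 ± 0.11 (adjusted p = 0.33).

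With the MEF line as a replicate block, 6 of 10 genes were called lower, against 5.46% of all genes, and these were Acta2, Cnn1, Actg2, Myl9, Lmod1 and Tpm2. The number of calls moved with the libraries used. Without the sgNT library of line 1, 0 of 10 genes were called lower, against 0.306% of all genes, and without that of line 2 only Myl9 was, against 0.206%. With all 10 MEF libraries in the fit 0 of 10 were, against 0.125%. In line 1 alone 6 of 10 genes were called lower, against 5% of all genes, and in line 2 alone 0 of 10, against 0.141%. DESeq2 called 6 of 10 lower, against 5.05%, and with sgBcl-2 summed per line and the block 7 of 10 were, against 6.58%. In all fits with 1 sgNT library, that library is assumed to vary like the sgBcl-2 libraries, which give all of the spread. The 9 genes stayed lower under each of the 22 alternatives tried. Their sgBcl-2 and sgNT libraries did not overlap, so most of these fits could hardly have changed the direction. Without a scaling factor the median of all genes moved to -0.10, 6 of 10 genes passed as lower, against 7.75% of all genes, and the share of all calls that were higher was 38.4% in place of 60.9%. Among markers of other cell types, the fibroblast markers summed to 15560 and 15660 CPM with sgNT and 15750 to 18260 CPM with sgBcl-2. Twist2, at 166 and 141 CPM against 244 to 310 CPM, and Dcn, Prrx1 and Thy1 were higher without overlap. The other fibroblast markers overlapped. The pericyte or vascular smooth muscle markers summed to 686 and 715 CPM against 666 to 763 CPM, with members on both sides. Rgs5 was at 5.56 and 5.13 CPM with sgNT and 0.943 to 2.55 CPM with sgBcl-2, and Mcam at 110 and 86.2 CPM against 42.5 to 77.2 CPM. Notch3 was also lower without overlap, at 52 and 53.7 CPM against 32.4 to 48 CPM. Cspg4 alone was higher without overlap, at 79.6 and 108 CPM against 120 to 147 CPM, and Ndufa4l2 overlapped, at 438 and 461 CPM against 440 to 533 CPM. Cartilage markers summed to 147 and 185 CPM against 89.6 to 108 CPM, adipocyte markers to 51.4 and 54.7 CPM against 22 to 34.7 CPM, and endothelial markers to 15.5 and 18.7 CPM against 7.12 to 11.7 CPM. Epithelial markers, at 0.633 and 0.828 CPM with sgNT, summed to 1.94 to 3.43 CPM with sgBcl-2, and macrophage markers to 8.82 and 7.70 CPM against 6.54 to 7.04 CPM. The skeletal muscle, cardiac muscle and neural or glial sums overlapped between the groups. Their part in the result was not tested.

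**Figure D2:**
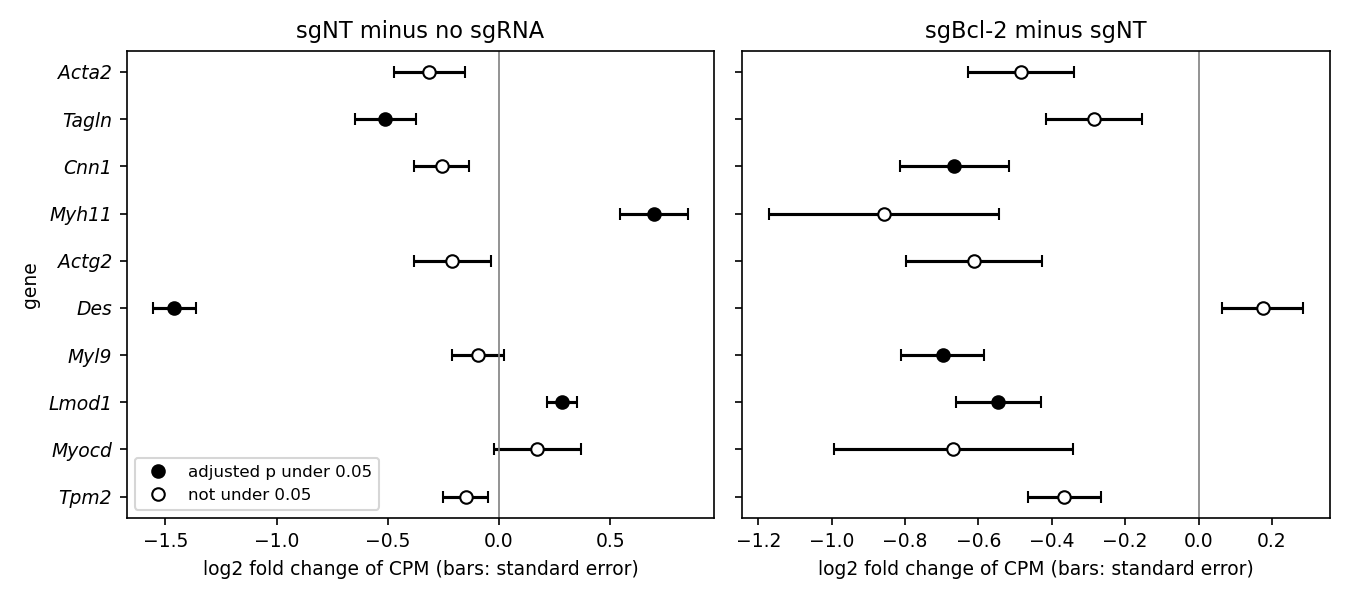
Log2 fold change of CPM per gene for sgNT minus no sgRNA (left) and sgBcl-2 minus sgNT (right), with standard errors as bars and filled points for adjusted p-values under 0.05. Des at -1.46 is the most negative on the left, and 9 of 10 genes lie under 0 on the right.

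Within each line, sgBcl-2 was set against the sgNT library of that line. The log2 difference of Acta2 was -0.44 in line 1 and -0.53 in line 2, and that of Myl9 was -0.70 in both. Cnn1 was at -0.54 and -0.79, Tpm2 at -0.29 and -0.44, and Lmod1 at -0.42 and -0.67. Tagln at -0.24 and -0.33, Actg2 at -0.71 and -0.52 and Myh11 at -1.08 and -0.63 were also negative in both lines. Myocd was at -0.09 in line 1 and -1.25 in line 2. The lines differ in sex in these libraries, so that line and sex cannot be told apart. The difference between the lines was tested as an interaction, which called 0 of 10 genes with limma, against 0% of the genes tested. DESeq2, edgeR and limma-voom also called 0 of 10. At an unadjusted p under 0.05 in limma there were 0 of 10 genes, against 3.54% of all.

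**Figure D3:**
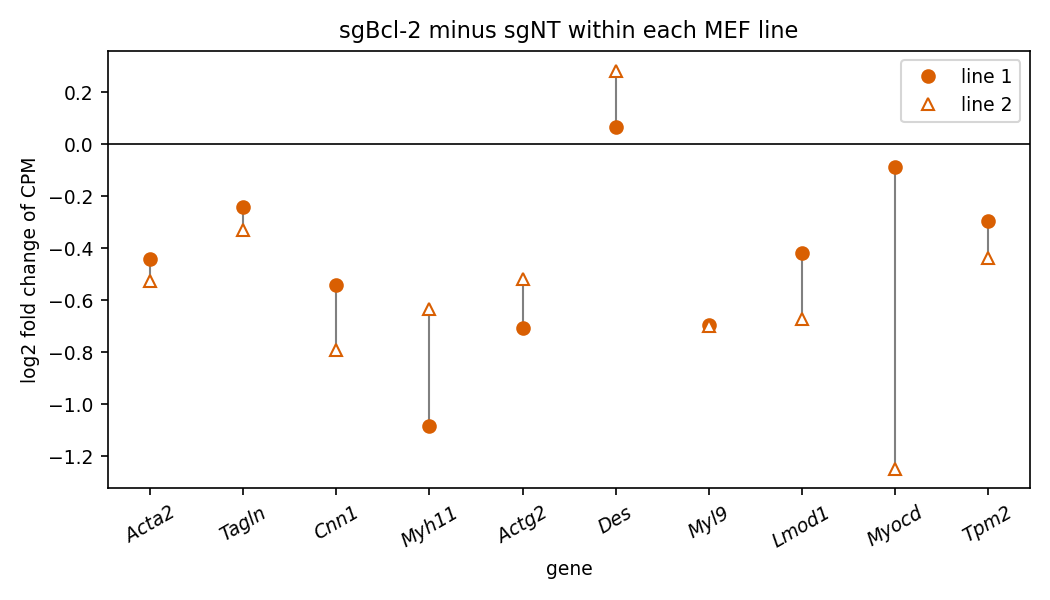
Log2 fold change of CPM for sgBcl-2 minus sgNT within MEF line 1 (circles) and line 2 (triangles), 1 sgNT and 2 sgBcl-2 libraries in each. Every gene except Des lies under 0 in both lines, and Myocd shows the widest gap, from -0.09 to -1.25.

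Between the lines themselves, over the 8 dCas9a-SAM libraries with the guide group as a factor, 0 of 10 genes were called with limma, against 0.00697% of the genes tested. DESeq2, edgeR and limma-voom also called 0 of 10, and 0 of 10 had an unadjusted p under 0.05 in limma, against 4.66% of all. The median log2 difference, line 2 minus line 1, was -0.13. The groups went in opposite directions, since without an sgRNA the line 2 library was higher for all 10 genes, while with sgNT line 1 was higher for all except Myocd. In the 6 libraries with an sgRNA, a fit added after the data were seen, the value was -0.28 for Acta2, -0.34 for Cnn1 and -0.24 for Myl9. Again 0 of 10 genes were called, beside 22 among all genes tested.

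The sgNT libraries were compared with those without an sgRNA to see what differed with a guide that has no target. The contractile genes split. Des and Tagln were lower and Myh11 and Lmod1 higher with sgNT, while Acta2, Cnn1, Actg2, Myl9, Myocd and Tpm2 did not pass. Des showed the clearest change, from 55.7 ± 3.7 CPM (SD, n = 2) without an sgRNA to 20.5 ± 2.33 CPM (SD, n = 2) with sgNT, a log2 fold change of -1.46 ± 0.10 (SE, adjusted p = 4.59e-05). Tagln fell by 0.51 on the log2 scale (SE 0.14, adjusted p = 0.0201). Myh11 was higher by 0.70 ± 0.15 (adjusted p = 0.00885) and Lmod1 by 0.28 ± 0.07 (adjusted p = 0.014).

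The 2 genes called lower stand against 20.9% of the 14655 genes tested and the 2 called higher against 20.3%, so the members' share was near that of all genes. Groups did not overlap for 3 of 10 genes that were lower, against 35.1%, and for 2 of 10 that were higher, against 37.9%. Tagln was not called without the line 2 library of either group, and Lmod1 not without the sgNT library of line 1 or the no sgRNA library of line 1, whereas Des and Myh11 passed in each of these. With all 10 MEF libraries in the fit 0 of 10 genes were called, and the calls among all genes also dropped, from 6029 to 901. With the 8 dCas9a-SAM libraries only Des and Tagln were called, and the share of all genes in that fit is not given here. Cell type markers also separated these groups. The 12 fibroblast markers summed to 13640 and 12530 CPM without an sgRNA and 15660 and 15560 CPM with sgNT, with Thy1 at 186 and 173 CPM against 861 and 709 CPM and Dcn at 12.7 and 14.8 CPM against 129 and 79.7 CPM. Vim went the other way, at 3606 and 3680 CPM against 3057 and 3018 CPM, and Col1a1, the most abundant, overlapped at 5134 and 4341 CPM against 4250 and 4497 CPM. The 5 cartilage markers summed to 591 and 771 CPM without an sgRNA against 147 and 185 CPM with sgNT, and the 6 neural or glial markers to 591 and 594 CPM against 186 and 212 CPM. The 8 pericyte or vascular smooth muscle markers, among which Higd1b was at 0 in all 10 libraries, summed to 639 and 720 CPM without an sgRNA and 686 and 715 CPM with sgNT, but single markers went both ways. Cspg4 was at 368 and 309 CPM without an sgRNA and 79.6 and 108 CPM with sgNT, whereas Ndufa4l2 was at 137.7 and 94.7 CPM without an sgRNA and 438 and 461 CPM with sgNT. Beside the change of Des, the 14 skeletal muscle markers summed to 113 and 144 CPM without an sgRNA and 50.4 and 48.8 CPM with sgNT, most of it from Acta1 at 105 and 131 CPM against 46.2 and 45.2 CPM. The 8 cardiac muscle markers summed to 18.1 and 19.7 CPM against 6.87 and 4.35 CPM, and the 6 epithelial markers to 13.4 and 20.5 CPM against 0.633 and 0.828 CPM. Macrophage markers summed to 6.29 and 5.29 CPM without an sgRNA and 8.82 and 7.70 CPM with sgNT. Adipocyte markers summed to 23.1 and 20.3 CPM without an sgRNA and 51.4 and 54.7 CPM with sgNT. Their part in the result was not tested.

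The comparisons with WT ask what differed with the cassette, without and with a guide. The 2 WT libraries differed widely from each other, and no member was called. With sgNT, 0 of 10 genes passed with limma, DESeq2, edgeR or limma-voom, against 0% of the 14560 genes tested by limma. In limma 0 of 10 had an unadjusted p under 0.05, against 4.05% of all. The largest log2 fold changes were 1.72 ± 1.00 for Cnn1 (adjusted p = 0.8) and 1.19 ± 0.79 for Myl9 (adjusted p = 0.8). Without an sgRNA, 0 of 10 passed in the same 4 tools, against 0% of the 14546 genes tested by limma. Again 0 of 10 had an unadjusted p under 0.05 in limma, against 7.43% of all. Cnn1 was at 1.99 ± 1.04 (adjusted p = 0.763) and Myl9 at 1.30 ± 0.81 (adjusted p = 0.79).

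The calls depended on which WT library was used. With 1 WT library left, it is assumed to vary like the other group, whose 2 libraries give all of the spread, so these counts hold for that library and not for WT MEFs. Without WT line 2, 1 of 10 genes was called between sgNT and WT, against 11.2% of all genes, and this was Des at 0.67. Acta2 was then at -0.14, Tagln at -0.34 and Tpm2 at -0.02. Without WT line 1, 7 of 10 genes were called, against 53.4%, with Cnn1 at 3.20, Myl9 at 2.34 and Des at -2.43. For no sgRNA against WT, leaving out WT line 2 gave 3 of 10 genes, against 31.8%, namely Des at 2.13, Cnn1 at 0.54 and Myh11 at -0.65. Leaving out WT line 1 gave 9 of 10, against 55.1%.

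Markers of other cell types stood apart in WT line 2. All 8 cardiac muscle markers were over 1 CPM, among them Tnnt2 at 198, Actc1 at 153, Nppa at 134 and Myh6 at 92.3 CPM, while Myh6 was at most 1.72 CPM in the other 9 libraries. Of 14 skeletal muscle markers, 12 were over 1 CPM there and 2 to 5 elsewhere. The 7 macrophage markers summed to 208 CPM against 5.29 to 8.82, and the 6 endothelial markers to 55.5 against 7.12 to 18.7 CPM. The 6 epithelial markers summed to 65.2 CPM against 0.633 to 20.5 and the 5 adipocyte markers to 39.5 CPM, inside the range of 20.3 to 54.7 elsewhere. Cardiac and skeletal muscle also express Des. The pericyte or vascular smooth muscle markers summed to 252.5 CPM there against 445.5 to 762.5 CPM, while neural or glial markers at 375 CPM were inside their range elsewhere. Cartilage markers summed to 63.3 CPM there against 89.6 to 771 CPM. The part of these markers in the members' values was not tested.

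**Figure D4:**
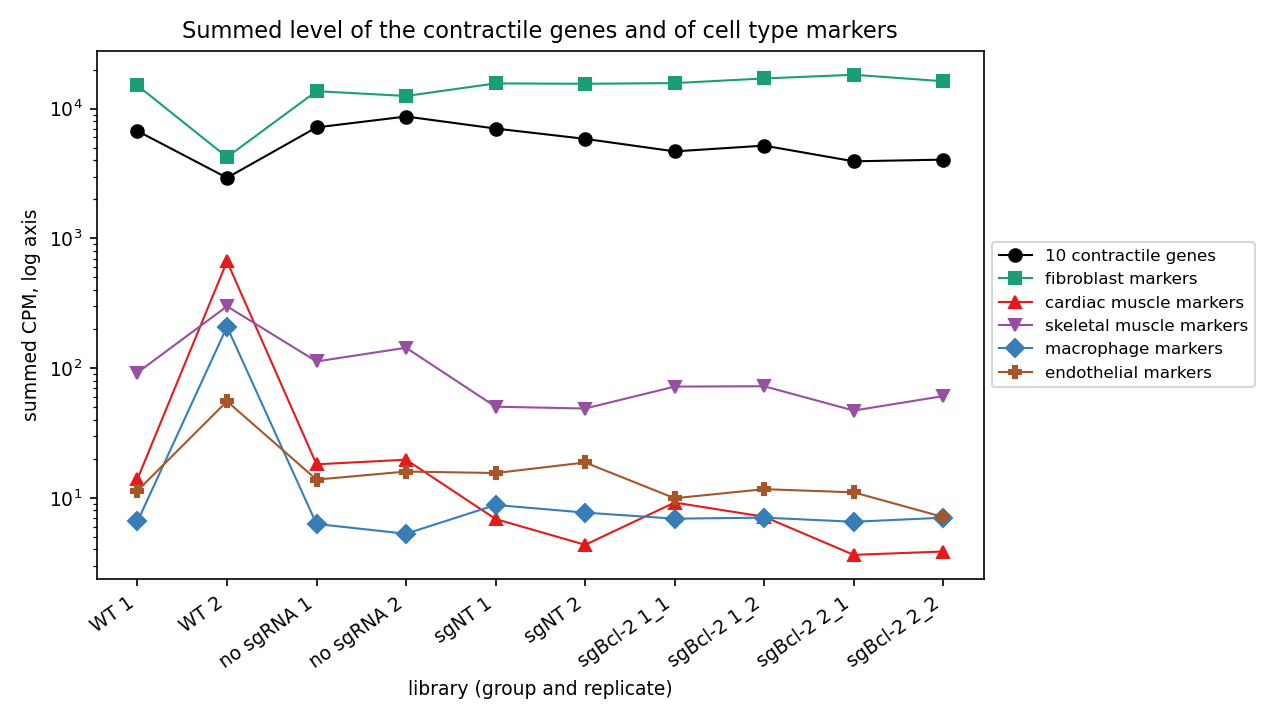
Summed CPM (log axis) of the 10 contractile genes and of the fibroblast, cardiac muscle, skeletal muscle, macrophage and endothelial marker lists in each MEF library. In WT line 2 the contractile sum drops to 2933 CPM and the fibroblast sum to 4233 CPM, while cardiac markers reach 666 CPM.

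Other genes of the contractile apparatus and its control were read for the comparison of sgBcl-2 with sgNT. Beside the lists that follow, 4.24% of all genes tested were called lower and 6.61% higher. Of 24 further smooth muscle contractile genes, 4 were called lower and 1 higher, with a median log2 fold change of -0.16. Mylk, the kinase that phosphorylates myosin light chain, fell from 45.8 ± 6.43 CPM (SD, n = 2) to 17.5 ± 5.8 CPM (SD, n = 4), a log2 fold change of -1.35 ± 0.27 (adjusted p = 0.0187). Ppp1r14a, an inhibitor of myosin phosphatase, fell by 1.28 (adjusted p = 0.0152), and Ldb3, a PDZ and LIM domain protein, fell by 1.22 (adjusted p = 0.00632). Tagln2, a relative of Tagln that many non-muscle cells express, rose from 71.1 ± 6.81 to 133 ± 10.2 CPM, a log2 fold change of 0.99 (adjusted p = 0.00171).

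Of 15 SRF cofactors and repressors, 14 were tested, of which 1 was called higher and 1 lower, with a median of 0.04. Klf4, a known repressor of smooth muscle genes, rose from 204 and 176 CPM with sgNT to 289, 299, 287 and 342 CPM with sgBcl-2, a log2 fold change of 0.77 ± 0.10 (adjusted p = 0.0045). Mrtfa, a coactivator of SRF, fell from 103 and 118 CPM to 80.2, 86.5, 86.4 and 82.9 CPM, by 0.30 on the log2 scale (adjusted p = 0.0447). For both genes the groups did not overlap.

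Of 18 TGF-beta pathway genes, 4 were called higher, against 6.61% of all genes, and 3 lower, against 4.24%, with a median of 0.10. The receptor gene Tgfbr2 rose from 151 ± 18.3 to 295 ± 37.3 CPM (log2 fold change 1.05, adjusted p = 0.00401) and the co-receptor gene Tgfbr3 from 92.7 ± 22.5 to 212 ± 43 CPM (1.28, adjusted p = 0.0094). Smad3, a signal transducer, rose by 0.54 (adjusted p = 0.0143), and Eng, the co-receptor endoglin, fell by 0.50 on the log2 scale (adjusted p = 0.0201). Of 14 myofibroblast matrix genes 0 were called with limma, edgeR or limma-voom and 3 with DESeq2, 4 had an unadjusted p under 0.05 in limma, and the median was 0.09. The most abundant were Thbs1, thrombospondin, at -0.27 ± 0.17 (adjusted p = 0.328) and Fn1, fibronectin, at 0.65 ± 0.21 (adjusted p = 0.0808). Of 8 non-muscle actin and myosin genes only Myh10, a non-muscle myosin heavy chain, was called, at -0.53 ± 0.12 (adjusted p = 0.0256), and the median was 0.08.

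**Figure D5:**
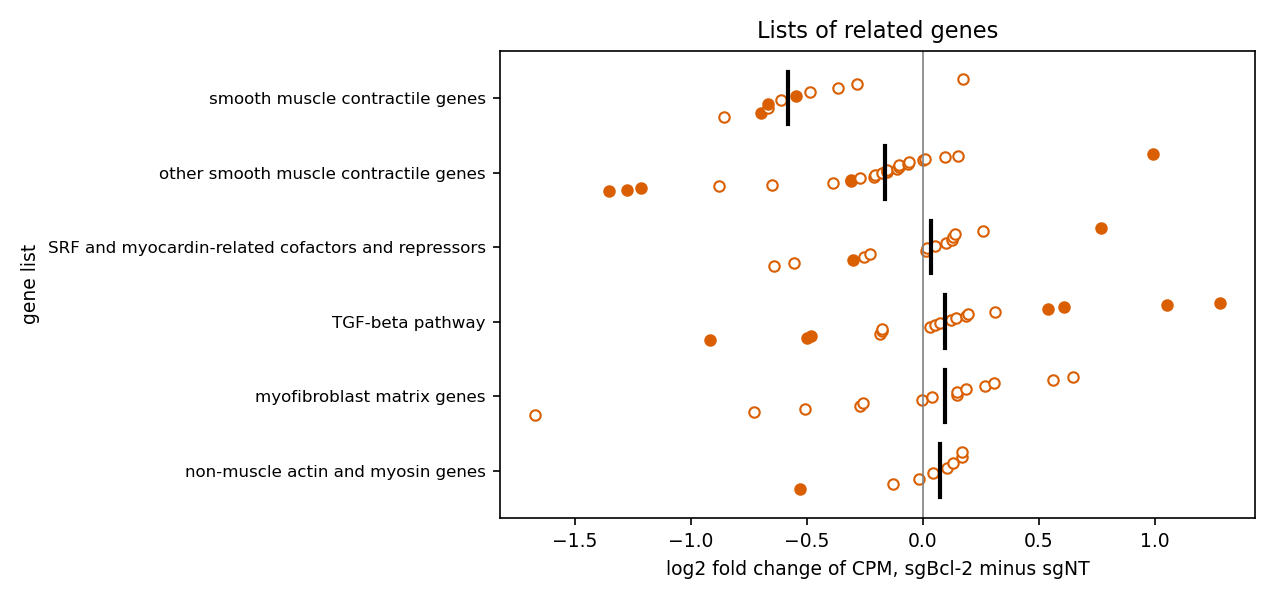
Log2 fold change of CPM for sgBcl-2 minus sgNT, 1 point per gene and 1 row per gene list, filled where the adjusted p-value is under 0.05, with a bar at the median of each list. The 10 contractile genes have a median of -0.58, the 24 further ones -0.16, and the other lists lie between 0.04 and 0.10.

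Between sgNT and no sgRNA more genes of the lists were called, beside 20.9% of all genes called lower and 20.3% higher, and shares near these are no result about a list. Of the 24 further contractile genes, 13 were called lower and 6 higher (median -0.28). Tagln2 at -1.88 and Pdlim7 at -0.72 were lower, while Ppp1r14a at 1.63 and Synpo2 at 1.26 were higher. Of the 14 SRF cofactors and repressors tested, 3 were called lower and 0 higher, namely Klf4 at -0.33, Srf itself at -0.32 and Mrtfb at -0.23 (median of the list -0.17). Of the TGF-beta pathway genes, 9 were called lower and 4 higher (median -0.21), with Skil and Tgfb2 both at -0.65 and Eng at 1.01. Of the matrix genes, 4 were called higher and 2 lower (median 0.20), with Postn at 2.07, Col3a1 at 1.48, Eln at 1.38 and Ccn2 at -1.12. Of the non-muscle actin and myosin genes, 7 of 8 were called lower (median -0.54), among them Myl12b at -0.61, Actg1 at -0.55, Tpm3 at -0.52 and Myh10 at -0.44. In the comparisons with WT, between the lines and in the interaction, 0 genes of each of these lists were called with limma, and 0 to 6 genes of a list had an unadjusted p under 0.05. The other tools also called 0, except that DESeq2 called 1 further contractile gene and 2 TGF-beta pathway genes for no sgRNA against WT. These comparisons share sgNT or other control libraries and are not independent of each other.

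Over the 10 MEF libraries, the pattern of each member was set beside the mean of all 10 members on the log2 scale, as a description. Pearson's r was 0.96 for Acta2, 0.94 for Myl9, 0.89 for Cnn1 and 0.88 for Tpm2, but 0.46 for Myocd and -0.18 for Des. Over the 8 dCas9a-SAM libraries it was lowest for Myh11 at 0.59, with 0.62 for Des and 0.74 for Myocd. Each gene is itself part of the mean, which raises its r. Outside the members, the genes most like their mean over 10 libraries were Hikeshi (0.98), Mrps11 (0.98), Cnep1r1 (0.98), Prex2 (0.97), Scrn1 (0.97), Hrct1, Tceal8, Gm10336, Armc6 and Ercc3 (each 0.97). Of these 10, only 1 was among the 10 most alike over the 8 dCas9a-SAM libraries, so the likeness rests in part on the WT libraries.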

How the data were processed

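The authors deposited CPM values per Entrez gene, neither logged nor scaled further, from reads aligned to GRCm38. Of 25869 identifiers, 25242 had a symbol in the RefSeq gene table. All values were whole multiples of 1 read (within 0.01), so reads were recovered. The members and gene lists were chosen with earlier results of these data known. For each comparison, genes of its libraries were kept by edgeR's filterByExpr, CPM were scaled by TMM, 0.1 CPM was added and log2 was taken, so that fold changes of low genes are understated. Genes were fitted with limma 3.58.1 (eBayes with trend, R 4.3.3), with Benjamini-Hochberg adjustment over the genes tested and a threshold of 0.05. Code was tested on simulated data. Alternatives were DESeq2 1.42.0, edgeR 4.0.16 and limma-voom on the recovered reads, other scalings, filters and pseudocounts, other sets of libraries, each replicate left out and a replicate block. Fits within 1 line and of the 6 libraries with an sgRNA were added after the data were seen.

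All 10 members were named, and of the other lists up to 4 called genes of smallest adjusted p, or, for sgBcl-2 against sgNT, the 2 most abundant where none was called. Of these, 1 gene is not reported here. Groups came from the labels. The line 2 minus line 1 differences of sgNT and sgBcl-2 correlated across 15158 genes (r = 0.326, and 0.162 without X and Y genes), while no sgRNA did not follow sgNT (r = -0.0473). WT, whose lines share only the number, gave 0.182 with sgBcl-2 and 0.203 without X and Y genes, so the correlation is no specific support for the pairing. The labels pair the lines by name. The main fits between groups, sgBcl-2 against sgNT included, held no line term, and the block was fitted only as an alternative. Only for sgBcl-2 against sgNT was the line read as a pairing. Gene lengths came from GENCODE exons. No 2 libraries of a group agreed within sampling noise.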

Additional observations from a re-analysis of the deposited data

How the results depend on the processing

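For sgBcl-2 against sgNT, the count of members called lower was 3. It became 6 with DESeq2, without a scaling factor, with the replicate block and in MEF line 1 alone, 7 with sgBcl-2 summed per line and the replicate block, and 0 with all 10 MEF libraries or in MEF line 2 alone. The share of all genes called lower moved too, from 4.24% to 5.05% with DESeq2, 5.46% with the block and 7.75% without a scaling factor. It was 6.58% with sgBcl-2 summed per line and the block, and 0.125% with all 10 MEF libraries. Fits of 1 line have 1 sgNT library, with all spread from the 2 sgBcl-2 libraries. Leaving out 1 library gave 0 to 5, and where it leaves 1 library in a group, that one is assumed to vary like the other group. For sgNT against no sgRNA the count of 4 became 0 with all 10 MEF libraries and 2 with the 8 dCas9a-SAM libraries, with or without the replicate block, and 3 to 4 when 1 library was left out. The block by itself changed no call there. Against WT, leaving out 1 library gave 0 to 7 members for sgNT and 0 to 9 for no sgRNA. Here the numbers are only shared, and the block called 0. The causes were not tested.

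Among all genes, sgNT against WT gave 0 calls, 88 with DESeq2, 68 with all 10 MEF libraries and 0 to 8424 with 1 library left out, and no sgRNA against WT gave 0, 188, 717 and 0 to 8581. All 10 MEF libraries moved 6029 to 901 (sgNT against no sgRNA) and 1592 to 64 (sgBcl-2 against sgNT). In the last, line 2 alone gave 96, the summed libraries with the block 2654, and leaving out 1 library 156 to 1638. Between the lines the count of 1 became 18 with DESeq2, 22 in the 6 libraries with an sgRNA, 0 without a scaling factor, filter or guide factor and with summed libraries, and 0 to 25 with 1 library left out. The interaction gave 0, 5 with DESeq2 and 0 to 43.

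Direction changed only for differences that were not called with all libraries of the comparison. In sgNT against WT, Tagln was at 0.027 without the filter. In no sgRNA against WT, DESeq2 and edgeR gave -0.025 and -0.019 for Myh11 and -0.13 and -0.14 for Des. Between the lines Des was at -0.011 without a scaling factor and -0.029 in the 6 libraries with an sgRNA, and the interaction of Myl9 was at -0.0041 with DESeq2, -0.00042 with RLE scaling and -0.0040 without the filter. Leaving out 1 library gave, in sgNT against WT, -0.14 to 1.78 for Acta2, -0.34 to 0.36 for Tagln, -0.012 to 0.63 for Actg2, -2.43 to 0.67 for Des, -0.23 to 0.17 for Myocd and -0.016 to 1.97 for Tpm2. In no sgRNA against WT it gave -0.65 to 1.14 for Myh11, -0.94 to 2.13 for Des, -0.24 to 1.84 for Lmod1 and -0.41 to 0.019 for Myocd. In sgNT against no sgRNA it gave -0.45 to 0.032 for Actg2, -0.22 to 0.031 for Myl9 and -0.027 to 0.38 for Myocd. Between the lines it gave -0.27 to 0.17 for Myh11 and -0.052 to 0.078 for Des. In the interaction it gave -0.19 to 0.033 for Acta2, -0.18 to 0.022 for Tagln, -0.093 to 1.02 for Myh11, -0.052 to 0.45 for Actg2 and -0.093 to 0.11 for Myl9. The order of the levels per length was the same with the longest transcript. An interaction without an sgNT library could not be fitted.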

Other observations

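The contractile genes were also read in the libraries that are not fibroblasts. These are untreated B-cell samples: EuMYC lymphoma lines with dCas9-SAM and sgBCL-2 (4 IgM positive and 2 IgM negative), 2 IgM positive primary tumours of the same genotype, and preB-ALL carrying BCR-ABL1 (p190T/+), whose 2 libraries are titled P190CreERLSLErg and P190RagCreErg and so differ in the alleles that the titles name. In the 6 lymphoma lines and 2 tumours, Tagln was at 1.94 to 3 CPM and Acta2 at 0.499 to 2.29 CPM, Lmod1 had at most 1 read, and Myocd was at most 0.2 CPM. The 2 preB-ALL libraries, in the order of these titles, were at 181 and 55.4 CPM for Acta2, 40.4 and 46.3 CPM for Tpm2, 49.2 and 13.5 CPM for Tagln and 47.5 and 12.3 CPM for Myl9, while Myocd had 0 reads in both and Myh11 had 2 and 3. The fibroblast levels of Acta2 lay between 928 and 3974 CPM, above both preB-ALL libraries.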
